A study of Mus musculus with 5 samples.

Results

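The exon-inclusion tables of mouse left ventricle held 4 skipped-exon events in 3 genes of the heart cell surface membrane: 2 in Kcnip2, 1 in Slc4a4 and 1 in Atp2b1. They were taken by gene, as every event of these genes among the 6616 events listed in the 6 deposited comparison tables, and all 4 were present in all 6 tables. The 96-nt exon of Kcnip2 and the exon of Atp2b1 carried their symbol in the tables. The 54-nt exon of Kcnip2 and the 97-nt exon of Slc4a4 were named by matching exon and intron lengths to a mouse gene annotation.

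The study compared left ventricles of C57BL/6 mice that received streptozotocin, a toxin of the insulin-making cells used to induce diabetes, with ventricles of mice given its solvent. Intraperitoneal injections began at 8 weeks of age and ran for 5 days, with citrate buffer alone in the Control group (n = 2) or streptozotocin at 70 mg/kg in citrate buffer in the STZ group (n = 3). All ventricles came from animals 12 weeks old, and total RNA of the whole tissue was sequenced. The labels do not say that each library is a separate animal, so p-values measure the spread between these libraries, which may be technical. In the deposited tables the libraries carry codes that match no sample title. The side of each comparison with 2 codes was taken as Control and the side with 3 as STZ from the group sizes alone, and the libraries are called Control A and B and STZ A, B and C here. The codes also form 2 number ranges, one for each group, so whatever that numbering stands for cannot be told apart from the treatment.

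The 3 genes act on ions at the cell membrane. Kcnip2 encodes KChIP2, a calcium-binding accessory subunit of the Kv4 potassium channels that carry the transient outward current early in the action potential, and its splice forms differ in the N-terminal region. Slc4a4 encodes NBCe1, an electrogenic sodium-bicarbonate cotransporter that brings base into cells, and its splice forms differ at both ends of the protein. Atp2b1 encodes PMCA1, a plasma membrane calcium pump, and alternative splicing near the end of its message gives regulatory tails that differ in calmodulin binding and in the PDZ-binding end.

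The 4 exons are printed here because their lengths decide what inclusion does to the reading frame. Capitals mark the exon that was included or skipped, and lower case marks 30 nt of the neighbouring exon on each side, read 5′ to 3′ along the GENCODE M21 transcript named (build GRCm38).
Kcnip2 96-nt exon (Kcnip2-202): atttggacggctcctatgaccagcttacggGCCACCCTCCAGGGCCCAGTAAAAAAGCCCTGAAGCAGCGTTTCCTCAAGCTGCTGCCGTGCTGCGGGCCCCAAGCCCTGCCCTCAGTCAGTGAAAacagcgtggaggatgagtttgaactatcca
Kcnip2 54-nt exon (Kcnip2-209): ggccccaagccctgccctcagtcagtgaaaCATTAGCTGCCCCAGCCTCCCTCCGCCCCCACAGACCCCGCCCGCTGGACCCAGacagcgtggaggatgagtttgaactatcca
Slc4a4 97-nt exon (Slc4a4-207): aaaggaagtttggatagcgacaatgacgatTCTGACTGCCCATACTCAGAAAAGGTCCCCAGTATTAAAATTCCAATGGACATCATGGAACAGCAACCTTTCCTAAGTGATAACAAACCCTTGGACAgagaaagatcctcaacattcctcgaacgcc
Atp2b1 exon (Atp2b1-210): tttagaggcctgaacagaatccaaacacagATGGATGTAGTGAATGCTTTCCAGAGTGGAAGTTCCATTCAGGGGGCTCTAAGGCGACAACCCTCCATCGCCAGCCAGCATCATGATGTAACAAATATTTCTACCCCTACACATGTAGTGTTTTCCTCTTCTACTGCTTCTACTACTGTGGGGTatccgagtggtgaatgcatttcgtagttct
All 4 exons lie in annotated coding sequence. The Kcnip2 exons are multiples of 3 in length, as were 45.67% of the 4769 exons tested, and add 32 and 18 codons without moving the frame. The left flank of the 54-nt exon is the end of the 96-nt exon, so that event describes messages that already hold the 96-nt exon. Among annotated Kcnip2 transcripts, Kcnip2-209 holds both exons and 270 coding codons, Kcnip2-202 holds only the 96-nt exon and 252 codons, and Kcnip2-208 holds neither and 220 codons. Other annotated forms do not fall into this order: Kcnip2-207, annotated as incomplete, holds the 54-nt exon without the 96-nt exon, and Kcnip2-201, with 252 codons, has a 100-nt exon that shares 1 boundary with the 96-nt exon. Kcnip2-204 has a single exon of 908 nt that runs from the 96-nt exon through the 54-nt exon. The Slc4a4 and Atp2b1 exons are not multiples of 3, so skipping each one shifts the frame of what follows. In Slc4a4-207 the stop codon lies 46 codons after the start of the exon when it is included and 61 codons after the same point when it is skipped. In Atp2b1-210, which is annotated as incomplete at its start, its end or both, the corresponding distances in the transcript sequence are 59 and 103 codons. Their GC content was 62.5% and 74.07% for the 96-nt and 54-nt Kcnip2 exons, 42.27% for Slc4a4 and 46.75% for Atp2b1.

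Inclusion was read as Psi, the estimated share of a gene's transcripts across the event that include the exon. Informative reads are those that fit 1 isoform alone, and in every library the events held between 2537025 and 4173228 of them in total. Of all reads assigned to events, between 45.5% and 49.1% per library fitted neither isoform. Libraries of the Control group were the deepest, with 17154734 and 20963751 event reads against 12692236 to 14913419 in STZ. Event reads of heart muscle genes (4 of 8 listed: Ldb3, Ryr2, Tnnt2 and Ttn) summed to 29900 and 28420 RPM in Control and to between 32800 and 38180 in STZ, RPM meaning reads that fit both isoforms per 1000000 reads of that class in the library. Pecam1, the only one of 3 endothelial markers with an event, was at 2318 and 2067 RPM in Control and between 5692 and 9187 in STZ. The smooth muscle genes Cald1 and Myh11 together were at 103 and 81.0 RPM in Control and between 249.6 and 435.4 in STZ. Fn1, the only one of 4 fibroblast markers with an event, was between 17.8 and 27.4 in all libraries, and the leukocyte gene Ptprc between 0 and 1.38, with 0 in Control A, STZ A and STZ C.

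Psi of the Kcnip2 exons, the Slc4a4 exon and the Atp2b1 exon did not overlap between the groups in any of the 4 events. Over all exons tested, 2045 of 4769 (42.9%) had groups that did not overlap, and 1091 (22.9%) did so with a mean difference of at least 0.10. The test was limma on logit Psi, two-sided, with Benjamini-Hochberg adjustment over all exons with at least 10 informative reads in every library. It called 713 of 4769 exons (15%), of which 482 (10.1%) were lower and 231 (4.84%) higher in STZ. Among the 4 events it called 1, the 96-nt exon of Kcnip2, which fell. The other three missed the threshold with adjusted p between 0.072 and 0.102.

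**Figure D1:**
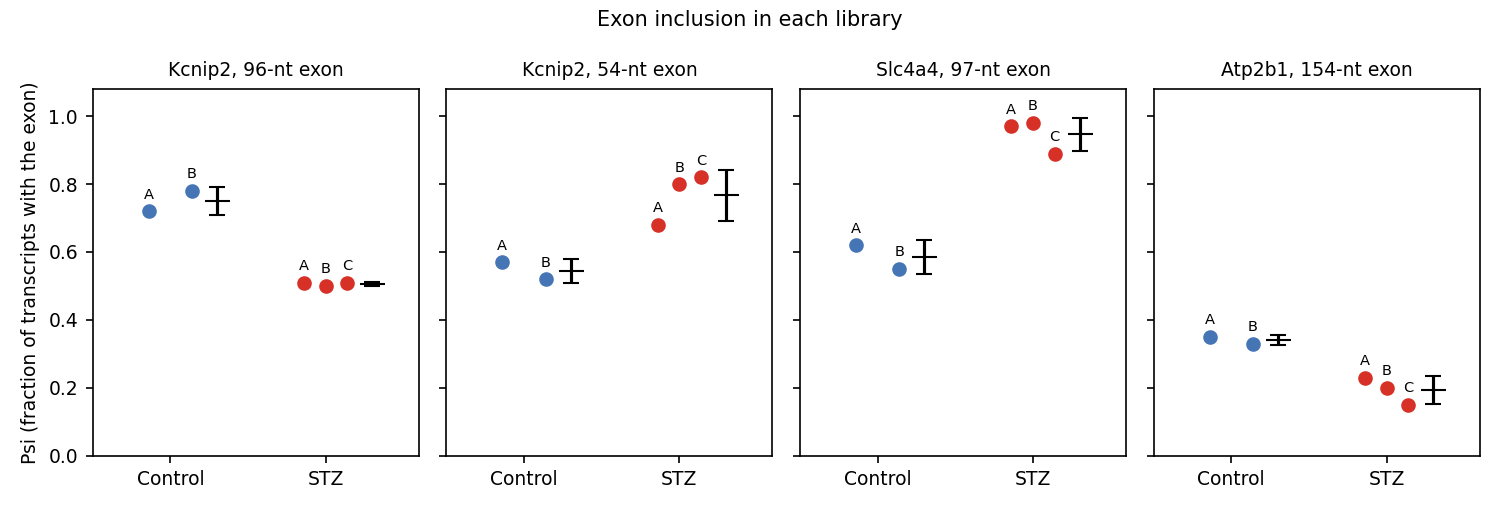
Psi (vertical axis, share of transcripts that include the exon, 0 to 1) of each library for the 4 exons, with letters for libraries and black marks for the group mean ± SD (n = 2 Control, n = 3 STZ). Groups do not overlap in any panel; the 96-nt Kcnip2 exon and the Atp2b1 exon are lower in STZ and the other two higher.

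The 96-nt exon of Kcnip2, which lengthens the N-terminal region of KChIP2, had a lower Psi in STZ. It lies on the minus strand at mm9 chr19:45871581-45871676, after an intron of 18544 nt and before one of 1386 nt. The first of these introns is longer than in 92.8% of tested exons. The event joins the 96-nt exon directly to the exon that follows the 54-nt exon. Reads joining the 96-nt to the 54-nt exon therefore fit neither isoform, and Psi does not measure total inclusion of the 96-nt exon. Psi was 0.72 and 0.78 in Control A and B and 0.51, 0.50 and 0.51 in STZ A, B and C. The STZ libraries lay within 0.01 of each other, and both Control libraries were higher. Mean Psi fell from 0.75 ± 0.0424 (SD, n = 2) to 0.507 ± 0.00577 (SD, n = 3). The logit change was -1.08 (SE 0.112, 95% interval -1.40 to -0.756, limma adjusted p = 0.0173). The call was lost whichever STZ library was left out, with adjusted p of 0.0623 when STZ A was left out, 0.0714 for STZ B and 0.0699 for STZ C. The logit change without these STZ libraries was between -1.09 and -1.06, close to the value with all of them. The logit change was -1.24 without Control A and -0.918 without Control B. Such a fit holds only 1 Control library, so the spread between the Control libraries does not enter it.

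The reads behind that value were unevenly shared between the isoforms. Reads fitting the including isoform of the 96-nt exon alone numbered 536 and 635 in Control and 211, 215 and 102 in STZ. Reads fitting the skipping isoform alone numbered 62 and 64 in Control and 67, 60 and 30 in STZ. In raw counts, skipping reads were thus about as many in STZ A and B as in Control, while including reads were fewer in every STZ library. These counts are not scaled to depth, and every STZ library held fewer informative reads in total than either Control library. As a plain share of informative reads, inclusion was 0.896 (95% Wilson interval 0.869 to 0.918) in Control A and 0.908 (0.885 to 0.928) in Control B. In STZ A, B and C the share was 0.759 (0.705 to 0.805), 0.782 (0.729 to 0.827) and 0.773 (0.694 to 0.836). These intervals cover counting error only, and they did not overlap between the groups. Psi also takes account of the longer stretch of sequence that can yield including reads, which the plain share does not.

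For the 54-nt exon of Kcnip2, which extends the N-terminal region of forms that already carry the 96-nt exon, Psi was 0.57 and 0.52 in Control and 0.68, 0.80 and 0.82 in STZ. STZ A was nearest to the Control libraries, and the direction was opposite to that of the 96-nt exon. The exon lies at mm9 chr19:45870769-45870822 on the minus strand, between introns of 758 and 574 nt. Mean Psi was 0.545 ± 0.0354 (SD, n = 2) and 0.767 ± 0.0757 (SD, n = 3), a logit difference of 1.04 (SE 0.286, 95% interval 0.214 to 1.86, limma adjusted p = 0.102). That missed the threshold, and without STZ A the adjusted p was 0.0376. Without STZ B or STZ C it was further from the threshold, at limma adjusted p = 0.2395 and 0.216. The logit change was 1.14 without Control A and 0.937 without Control B. Informative reads were 293 and 290 in Control and 109, 118 and 42 in STZ, of which 57, 54, 14, 9 and 1 fitted the skipping isoform. STZ C therefore rested on 1 skipping read, and its read share of 0.976 had a Wilson interval of 0.877 to 0.996. The 54-nt event shares its flank with the 96-nt exon, so both Kcnip2 events describe partly the same molecules and are not independent.

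The 97-nt exon of Slc4a4, which decides between the alternative C-terminal ends of NBCe1, had the largest difference of Psi among the 4 events. It lies at mm9 chr5:89661789-89661885 on the plus strand, between introns of 3776 and 1936 nt. Psi was 0.62 and 0.55 in Control and 0.97, 0.98 and 0.89 in STZ. Every STZ library was well above both Control libraries, and STZ C was the lowest of the STZ group. Mean Psi was 0.585 ± 0.0495 (SD, n = 2) and 0.947 ± 0.0493 (SD, n = 3). On the logit scale the difference was 2.81 (SE 0.646, 95% interval 0.95 to 4.67), which missed the threshold at limma adjusted p = 0.072. Without STZ C it passed at 0.0342, and when the share of informative reads replaced Psi it passed at 0.00833. Without STZ A or STZ B it was further from the threshold, at limma adjusted p = 0.172 and 0.1525. The logit change was 2.95 without Control A and 2.66 without Control B.

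Skipping reads of the Slc4a4 exon were few throughout, with 10 and 19 in Control against 67 and 96 including reads. In STZ there was 1 skipping read in STZ A beside 161 including reads, and none in STZ B beside 71 or in STZ C beside 32. A count of 0 allows a skipping share of up to 4.225% of informative reads in STZ B and up to 9.375% in STZ C. Each of these limits is 3 reads divided by the informative reads, which is lower than the limit a two-sided Wilson interval gives. The read share of inclusion was 0.870 (95% Wilson interval 0.777 to 0.928) and 0.835 (0.756 to 0.892) in Control and 0.994 (0.966 to 0.999) in STZ A. The lower Wilson bounds of STZ B and C were 0.949 and 0.893, so STZ C was bounded least closely of the STZ libraries and its interval overlapped that of Control A.

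The Atp2b1 exon lies at the C-terminal splice site of PMCA1, where skipping gives the tail with the PDZ-binding end. Its place is mm9 chr10:98481912-98482065 on the plus strand, after an intron of 380 nt and before one of 3376 nt. Psi was 0.35 and 0.33 in Control and 0.23, 0.20 and 0.15 in STZ. The skipping form was the larger part in every library, and all STZ libraries were below both Control libraries. Mean Psi was 0.34 ± 0.0141 (SD, n = 2) and 0.193 ± 0.0404 (SD, n = 3). The logit difference of -0.78 (SE 0.186, 95% interval -1.32 to -0.243) missed the threshold at limma adjusted p = 0.0771.

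Atp2b1 was the event with the most even split of informative reads. Including reads numbered 164 and 185 in Control and 109, 80 and 64 in STZ. Skipping reads numbered 89 and 119 in Control and 132, 94 and 120 in STZ. Including reads outnumbered skipping reads in both Control libraries, and skipping reads outnumbered including reads in all 3 STZ libraries. The read share of inclusion was 0.648 (95% Wilson interval 0.588 to 0.704) and 0.609 (0.553 to 0.662) in Control. In STZ it was 0.452 (0.391 to 0.515), 0.460 (0.387 to 0.534) and 0.348 (0.283 to 0.419), with no interval reaching those of Control. The annotation also holds a shorter form of this exon, of 87 nt with the same start, in Atp2b1-209, which the event does not count separately.

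**Figure D2:**
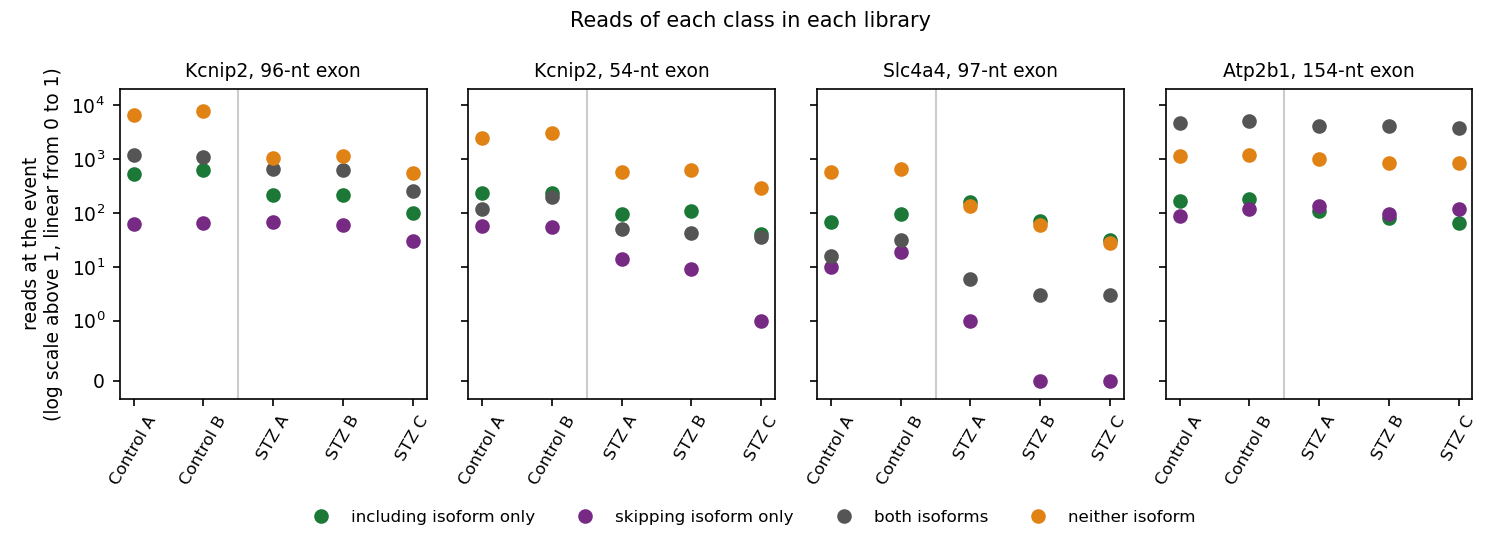
Reads of the 4 classes (vertical axis, reads per library on a symmetric log scale) in each library for the 4 exons: including isoform alone, skipping isoform alone, both, and neither. Slc4a4 skipping reads drop from 10 and 19 in Control to 1, 0 and 0 in STZ, and Kcnip2 reads fitting neither isoform are several times fewer in STZ.

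In the authors' deposited tables, the 6 comparisons of 1 Control with 1 STZ library share libraries, so they are not 6 independent results. Across all 6, a difference of 0.20 or more in 1 direction together with a Bayes factor no lower than 10 held for 204 of 6331 events (3.22%), 136 lower (2.15%) and 68 higher (1.07%) in STZ. The 96-nt Kcnip2 exon met this in the authors' deposited tables, with differences between -0.28 and -0.21 (STZ minus Control) and a lowest Bayes factor of 1.24e+06. Slc4a4 met it as well, with differences between 0.27 and 0.43 in the authors' deposited tables and a lowest Bayes factor of 73. The 54-nt Kcnip2 exon had differences between 0.11 and 0.30 there, and its Bayes factor, as low as 0.58, reached 10 in 3 of the authors' deposited comparisons. For Atp2b1 the authors' deposited differences lay between -0.20 and -0.10, and the Bayes factor reached 10 in 5 of 6 comparisons with a lowest value of 8.38.

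Read level at the events was taken as a second readout beside inclusion. It used reads fitting both isoforms, which lie in the flanking exons, in RPM as above. At the 54-nt Kcnip2 event the upstream flanking exon is the 96-nt exon, so there the level also depends on inclusion of that exon. limma on log2 of this level, with 0.5 reads added, called 2008 of 4814 events (41.7%), of which 1034 (21.5%) were lower and 974 (20.2%) higher in STZ. In these samples of whole tissue, fewer cells of a type and less RNA per cell cannot be told apart. The summed levels of the heart muscle genes, of Pecam1 and of Cald1 with Myh11 were higher in every STZ library than in Control by the values above, and their part in the results on inclusion and level was not tested.

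Kcnip2 read level fell in STZ at both of its events in reads fitting 1 isoform alone, in reads fitting neither and in all classes together, and at the 54-nt event also in reads fitting both isoforms. At the 54-nt event, reads fitting both isoforms were at 19.7 and 27.4 RPM in Control and at 11.1, 9.03 and 8.56 in STZ. Every STZ library was below both Control libraries, a separation whose share over all events was not counted. Reads fitting both isoforms lie partly in the 96-nt exon here, so their level is not separate from its inclusion. The log2 level fell by 1.28 (SE 0.26, 95% interval -1.86 to -0.70, limma adjusted p = 0.00389), a call that was lost without Control B (adjusted p = 0.0782). At the 96-nt event the same class was at 195.0 and 150.4 RPM in Control and at 144.4, 132.2 and 60.7 in STZ. The log2 difference of -0.70 (SE 0.335, 95% interval -1.46 to 0.048, limma adjusted p = 0.119) did not pass the test. It did without STZ A (adjusted p = 0.013), but not without STZ B (0.116) or STZ C (0.2285). Reads fitting 1 isoform alone fell by 1.19 at the 96-nt event (SE 0.262, limma adjusted p = 0.00621) and fell by 1.44 at the 54-nt event (SE 0.362, limma adjusted p = 0.0112) on the log2 scale, and 30.9% of all events were called lower in this class.

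The widest difference at Kcnip2 was in reads that fitted neither isoform of its events. By construction this class includes reads that join an exon of the event to an exon outside it, such as the 96-nt to the 54-nt exon. At the 96-nt event there were 6613 and 7958 such reads in Control and 1052, 1121 and 546 in STZ. Per 1000000 reads of that class this was 834.7 and 834.9 in Control against 143.6, 163.4 and 91.75 in STZ. The log2 level fell by 2.69 (SE 0.238, limma adjusted p = 8.867e-05), while the median over all events in this class moved by -0.348 and 2471 of 6318 events (39.1%) were called lower. At the 54-nt event the same class fell by 2.17 (SE 0.251, limma adjusted p = 0.000294), from 315.8 and 317.9 RPM to 78.2, 90.2 and 48.9.

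As a share of all reads at the 96-nt Kcnip2 event, reads fitting neither isoform made up 78.9% and 81.6% in Control and 52.8%, 55.3% and 58.5% in STZ. The groups did not overlap, as was so with the share lower in STZ for 1587 of 4769 tested exons (33.3%), and 68 of these exons (1.43%) had a larger fall of the share. The shares at the 54-nt event were 85.9% and 86.1% against 78.2%, 79.4% and 78.9%. Psi at these events therefore described a minority of the reads in every library, and a larger minority in STZ. With all 4 classes together, most of them the same reads fitting neither isoform, the log2 level fell by 2.10 at the 96-nt event (limma adjusted p = 0.000793). At the 54-nt event it fell by 1.99 (limma adjusted p = 0.000826). The median over all events was -0.256, and 35.3% of them were called lower.

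At the Slc4a4 event the classes of reads did not move together. Reads fitting both isoforms were only 16 and 31 in Control and 6, 3 and 3 in STZ, or 2.67 and 4.27 RPM against 1.31, 0.630 and 0.714. That log2 level fell by 1.86 (SE 0.567, 95% interval -3.13 to -0.588, limma adjusted p = 0.0254), a call lost without Control A (0.0776) or STZ B (0.0602) and not testable at this minimum of reads without Control B. Reads fitting 1 isoform alone were at 23.7 and 27.6 RPM of their own class in Control and at 54.04, 24.4 and 12.6 in STZ, and these groups overlapped. Their log2 difference was 0.0023 (SE 0.497, 95% interval -1.12 to 1.12, limma adjusted p = 0.998), a range wide enough to hold a change of 1 log2 unit either way. With all reads fitting at least 1 isoform, the Slc4a4 level difference was -0.127 (adjusted p = 0.857).

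Reads fitting neither Slc4a4 isoform were at 73.5 and 69.9 RPM of that class in Control and at 18.7, 8.60 and 4.71 in STZ. Their log2 level fell by 2.96 (SE 0.488, limma adjusted p = 0.0015). Their share of all reads at the event was 86.2% and 82.0% in Control and 44.9%, 44.4% and 44.4% in STZ, and 5 of 4769 tested exons (0.105%) had a larger fall of this share. The 3 STZ libraries agreed to within 1 percentage point, although STZ C held 63 reads at the event and STZ A 305.

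Atp2b1 differed from the other genes in its levels. Reads fitting both isoforms numbered 4760 and 5078 in Control and 4147, 4131 and 3823 in STZ, which was 795.5 and 699.6 RPM against 903.2, 867.1 and 909.3. The log2 difference of 0.26 (SE 0.128, 95% interval -0.028 to 0.548, limma adjusted p = 0.133) did not pass the test. In reads fitting 1 isoform alone the log2 difference was -0.0972 (SE 0.193, adjusted p = 0.704), so no direction of the level can be given. The share of reads fitting neither isoform was 18.6% and 18.0% in Control and 18.5%, 16.4% and 17.6% in STZ, with overlapping groups.

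**Figure D3:**
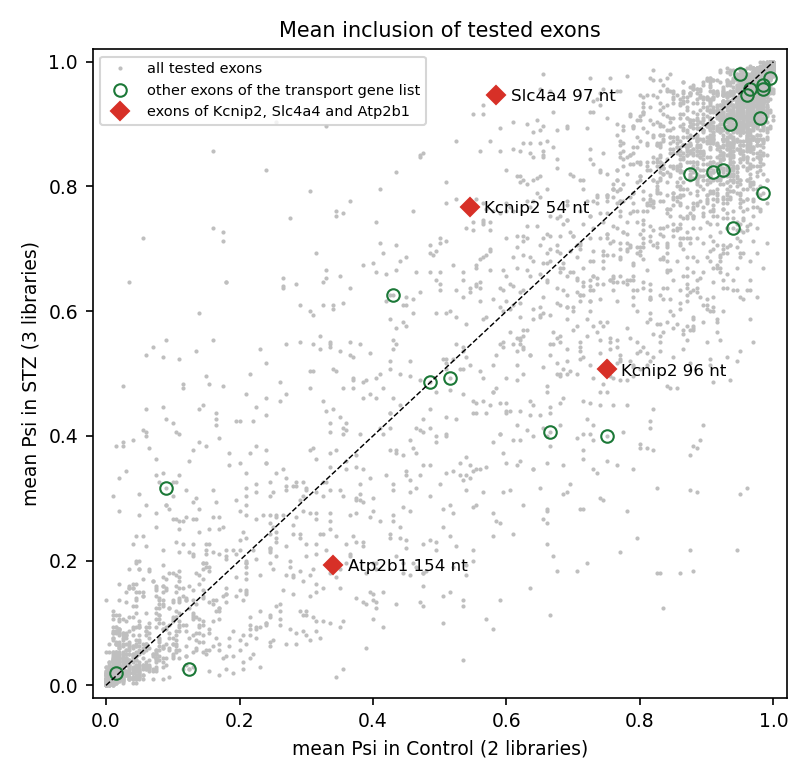
Mean Psi in Control (horizontal axis) against mean Psi in STZ (vertical axis) of the 4769 tested exons as points, with the transport gene list circled and the 4 exons as diamonds. Exons on the diagonal have equal means; Slc4a4 lies far above it at 0.585 and 0.947, and the 96-nt Kcnip2 exon below it at 0.75 and 0.507.

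For context, inclusion was read in a list of 172 genes of ion channels, pumps and transporters that holds the 3 genes. Events were present for 30 of them, and 25 exons of 17 genes could be tested. The test called 7 of these 25 (28%, against 15% of all tested exons), 5 lower and 2 higher in STZ. Without Kcnip2, Slc4a4 and Atp2b1 it called 6 of 21. Of the list exons with at least 1 read of each isoform, a limit added after seeing the data, 5 of 21 were called, against 665 of 3989 of all such exons (16.7%). The median difference of Psi was -0.0283 over the 25 exons and -0.01 over all tested exons, and the median size of the difference was 0.0867 and 0.035, or 0.055 over the 21 exons without the 3 genes. By subgroup, 1 of 7 potassium channel exons was called lower, and of 10 exons of sodium, calcium and other cation channels 1 was called higher and 1 lower. Of 4 chloride channel exons 2 were called lower and 1 higher, of 2 acid-base exons 1 was called lower, and the single exons of the calcium pumps and of the sodium-potassium pump were not called.

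Beside Kcnip2, the called exons with large differences were both in Clcn3, which encodes an intracellular chloride-proton exchanger. Its longer tested exon fell from 0.75 ± 0.00 (SD, n = 2) to 0.40 ± 0.0608 (SD, n = 3; limma adjusted p = 0.0225). Its 76-nt exon rose from 0.09 ± 0.0283 to 0.317 ± 0.0513 (adjusted p = 0.0348). The 63-nt exon of Ano6, a calcium-activated scramblase and channel, fell from 0.125 ± 0.0495 to 0.0267 ± 0.00577 (adjusted p = 0.0425). It rested on 12 including and 18 skipping reads in Control and 8 and 48 in STZ. The 146-nt exon of Car4, a membrane carbonic anhydrase, fell from 0.98 ± 0.00 to 0.91 ± 0.02 (adjusted p = 0.0189). Its skipping reads were 0 beside 1383 including reads in Control and 29 beside 2929 in STZ. With Psi clipped at 0.05 both calls were lost (limma adjusted p = 0.116 for Ano6 and 0.153 for Car4). The other called exons had 0 skipping reads in every library, so that no change of inclusion was seen in their reads. They were the 122-nt exon of the calcium channel gene Cacna1h, with a mean Psi of 0.95 and 0.98 (adjusted p = 0.00614), and the 133-nt exon of the cation channel gene Trpm4, at 0.995 and 0.973 (adjusted p = 0.0416). Neither call held with read share in place of Psi (0.124 and 0.0533), and that of Trpm4 was also lost with clipping at 0.001 (0.164). The largest differences that missed the threshold were those of Slc4a4, of the longest tested exon of Abcc9 (0.665 to 0.407, adjusted p = 0.108), a sulfonylurea receptor subunit of potassium channels, and of the 54-nt Kcnip2 exon.

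With 1 library left out, 2 of the 7 calls still passed in 4 cases, and 3 passed without STZ A. The 76-nt Clcn3 exon and the Ano6 exon missed the threshold whichever library was left out, at adjusted p from 0.0653 to 0.126 and from 0.0798 to 0.128. The longer Clcn3 exon missed it without Control A (0.105), Control B (0.113), STZ B (0.0713) or STZ C (0.0784). Car4 missed it without Control A (0.0949), Control B (0.102) or STZ B (0.0748), and Trpm4 without Control A (0.164), Control B (0.173), STZ A (0.102) or STZ C (0.119). Cacna1h passed whichever library was left out. Its Psi did not vary within either group and it had 0 skipping reads, so leaving 1 library out could not change its difference. The sizes moved less than the calls: the logit change was between -1.65 and -1.43 for the longer Clcn3 exon, against -1.51 with all libraries, and between -1.69 and -1.44 for Car4, against -1.56. That of the 76-nt Clcn3 exon was between 1.31 and 1.81, and that of Ano6 between -1.96 and -1.30.

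**Figure D4:**
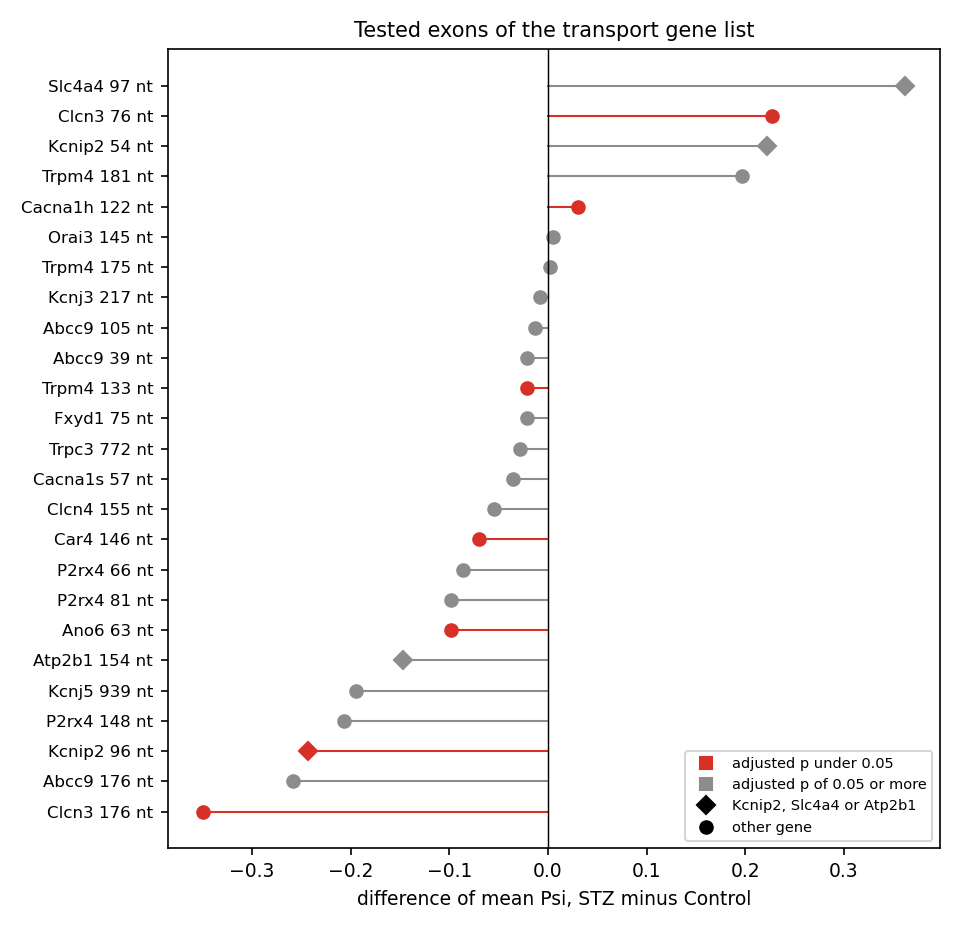
Difference of mean Psi, STZ minus Control (horizontal axis), of the 25 tested exons of the transport gene list, 1 per line, with called exons in red (adjusted p under 0.05). The Slc4a4 exon is the farthest to the right at 0.362 without being called, and the longer Clcn3 exon the farthest to the left at -0.35.

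The exons of other genes whose Psi was most like that of the 96-nt Kcnip2 exon over the 5 libraries were the 147-nt exon of Bag6, the 113-nt exon of Pbx3 and the 27-nt exon of Max. Their mean absolute differences of Psi from Kcnip2 were 0.016, 0.022 and 0.024. For the Atp2b1 exon the nearest were the 165-nt exon of Os9 at 0.02, the 108-nt exon of Tcof1 at 0.022 and the 76-nt exon of Psmg4 at 0.024. The Slc4a4 exon had no neighbour as close, and its nearest were the 75-nt exon of Arhgap12 at 0.032, the 96-nt exon of Tmpo at 0.048 and the 72-nt exon of Ktn1 at 0.052. Likeness here is over 5 libraries that fall in 2 groups, so it is set mostly by the 2 group means.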

How the data were processed

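Total RNA of mouse left ventricle was harvested with Trizol, per the labels' protocols. Reads were handled with CASAVA 1.8.2 and TopHat on build mm9, as the submitters' processing notes record; the TopHat version is not given in them. Exon inclusion was estimated with MISO, per the file headers; for its version and event set the sources used here give nothing. The authors deposited, for 6 pairs of 1 Control and 1 STZ library, Psi as a fraction with 2 decimals, the difference of Psi, a Bayes factor (a ratio of evidence for and against a difference), and counts of reads in 4 classes (including isoform alone, skipping isoform alone, both, neither). Psi and read counts of a library did not differ between the deposited tables. Of the tables' other per-library columns, 36 were not used. The deposited ratios held 8 infinite Bayes factors.

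Events were named by the symbol in the tables (3665) or by exon and intron lengths in GENCODE M21 (2584), and 367 stayed unnamed. Where both gave a name, 83.58% of 3313 were the same symbol. Since GENCODE M21 is on GRCm38 and the tables on mm9, sequences were read from its transcripts and never by mm9 coordinates.

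Libraries were assigned to groups by group size, since no code matches a title. limma 3.58.1 (R 4.3.3) was run on logit Psi clipped at 0.01 and 0.99, for events with at least 10 informative reads in every library, with a prior variance following the log2 mean of informative reads. Calls were at Benjamini-Hochberg adjusted p under 0.05. Read levels were tested with limma on log2 of reads plus 0.5 per 1000000 reads of the class, for events with a mean of at least 10 reads. Counts were packed in text cells as classes of event reads, so no count model was the main test. The steps were run on simulated data in which Psi was a plain read share, unlike the deposited Psi, and no result rests on that run. Python 3.11.15 with pandas 2.3.3 and scipy 1.17.1 did the rest.

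Members and gene lists were chosen with earlier results of these data known. Named are all tested events of the 3 genes, the called exons of the transport list (up to 12), its 3 largest differences that were not called, and the 3 nearest patterns of 3 of the exons. Read levels of other read classes and a revised read model, and counts limited to exons with reads of both isoforms, were added after seeing the data.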

Additional observations from a re-analysis of the deposited data

How the results depend on the processing

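The direction of Psi at the 4 exons was the same under every alternative that gave a value: clipping at 0.001 or 0.05, minimums of 20, 5 or no informative reads, read share in place of Psi, the read models, no variance trend, array weights, and leaving out each library. Minimums of reads and the variance trend do not enter the change itself. Because Psi did not overlap between the groups, clipping, weights or leaving out a library could not reverse a sign either. Only read share and the read models could have done so. The count of called exons among the 4 was 1 as reported and 2 with read share. The reported call, the 96-nt Kcnip2 exon, was lost without each STZ library in turn. The single call was then the 54-nt Kcnip2 exon without STZ A and Slc4a4 without STZ C, and none was called without STZ B. A planned quasi-binomial model of the reads called 0 of the 4, 0 of the transport list and 24 exons in all. A version with its prior taken from exons with both isoforms read, added after seeing the data, called 4 of the 4, at adjusted p = 7.63e-05 and 0.0332 for the 96-nt and 54-nt Kcnip2 exons, 0.00026 for Slc4a4 and 0.000526 for Atp2b1. It called 972 exons in all.

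Over all exons, 713 calls became 282 and 310 when Control A or Control B was left out, and 467, 304 and 348 when STZ A, B or C was. A lone Control library is then assumed to vary like the STZ group. The 7 calls of the transport list became 2 with clipping at 0.05, where Cacna1h and Trpm4 gave no value because every library lay at the clip, and the list had 2 to 4 calls without 1 library, including Slc4a4 or the 54-nt Kcnip2 exon where there were 4. Clipping at 0.05 left Slc4a4 at adjusted p = 0.0501. Called read levels ranged from 1027 to 2536 without 1 library, at 1027 and 1032 when Control A or B was left out, and were 3524 for reads fitting neither isoform and 3401 for all 4 classes. With reads of 1 isoform alone, added after seeing the data, the level difference changed sign for Atp2b1 (-0.0972) and Slc4a4 (0.0023). The authors' comparisons gave 204 exons at a difference of 0.20, 356 at 0.10, and 189 at a Bayes factor of 20. No paired analysis was possible because the columns carry none of the replicate numbers of the labels. The cause of these changes was not tested. Counting only exons with at least 1 read of each isoform gave 665 calls in all, 5 in the list and 1 of the 4. Informative reads at the 4 exons were as few as 32, for Slc4a4 in STZ C.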
